A study of Rattus norvegicus with 24 samples.

Results

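Transcripts whose level peaked in the late juvenile stage were examined in the hypothalamus of Sprague Dawley rats approaching puberty. Each rat gave 1 Illumina bead array, a chip whose probes each light up in proportion to the labelled RNA they capture. The stages were early juvenile at 21 days (n = 5), juvenile at 26 days (n = 5), late juvenile at 29 days (n = 5), early proestrus before ovulation, labelled as 29, 30, 31 and 32 days (n = 4; the series' design text gives an upper limit of 31), and late proestrus at 31 days, on the day of the first ovulation (n = 5). No treatment or transgene is labelled. The array of juvenile rat 4 and that of early proestrus rat 10 carry little signal and were left out, so that 4 juvenile and 3 early proestrus arrays entered. Titles give each array its own animal number, and each was taken as a separate rat.

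Members were chosen among the 9119 of 22523 probes detected on all 5 late juvenile arrays, where detected means a deposited detection p-value under 0.05. With the authors' processed values on the log2 scale, D was the late juvenile mean minus the mean of the other 4 stage means. A probe qualified where D was above 0 and exceeded in size the same deviation of every other stage, which 2195 probes did. The 150 with the highest D are the members, which were thus chosen by their late juvenile level on these same arrays. They report 150 different targets. The files give an identifier but no gene for each probe. None of the identifiers (0 of 22523) occurs in the rat gene table used here, so members go by their probe identifier. No gene, function or sequence is stated for them, and markers of the hypothalamus could not be examined.

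The hypothalamus sets the time of puberty. Neurons that make gonadotropin-releasing hormone lie under restraint during juvenile life, and their pulses strengthen when stimulatory inputs such as kisspeptin neurons and glia gain over inhibitory ones. On proestrus, rising estradiol from the ovary triggers the surge of this hormone that leads to ovulation. The late juvenile stage is the last one here before the first proestrus.

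D of the members ran from 0.44 to 1.73 with a median of 0.54, a 1.45-fold difference. Of the 150, 8 exceeded 1, 18 lay between 0.7 and 1, 74 between 0.5 and 0.7, and 50 below 0.5. The last members inside the limit had a D of 0.441 and 0.440, and the next probes outside it 0.4383 and 0.4382, so the limit separates no group. These values chose the members and are a description without a test. All further levels are log2 intensities after background correction and quantile normalization (neqc), which widens differences of dim probes. On that scale the late juvenile difference of the members ran from 0.45 to 3.51 with a median of 0.71 (1.64-fold), and 28 exceeded 1. The median over the 12436 probes tested was 0.00.

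The stage is held by 1 set of animals. Late juvenile rats are numbered 28 to 37, early juvenile rats 164 to 168 and the others 1 to 20, so stage and any property of this set of rats, or of the handling of their samples, cannot be told apart. Mean raw signal was 582.9 to 754.9 on the late juvenile arrays, against 513.7 on juvenile array 5, 694.9 on late proestrus array 20 and 786.8 to 1025 on the other 15 arrays. Whether array brightness has a part in the level of the members was not tested as a cause. In the raw log2 intensity, before any normalization, the late juvenile difference of the members was 0.03 to 1.56 with a median of 0.26, where the median over the tested probes was -0.14. This is the contrast that chose the members, on the same arrays, so nothing about brightness is read from it. In whole hypothalamus, more cells of a type and more RNA per cell cannot be told apart.

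**Figure D1:**
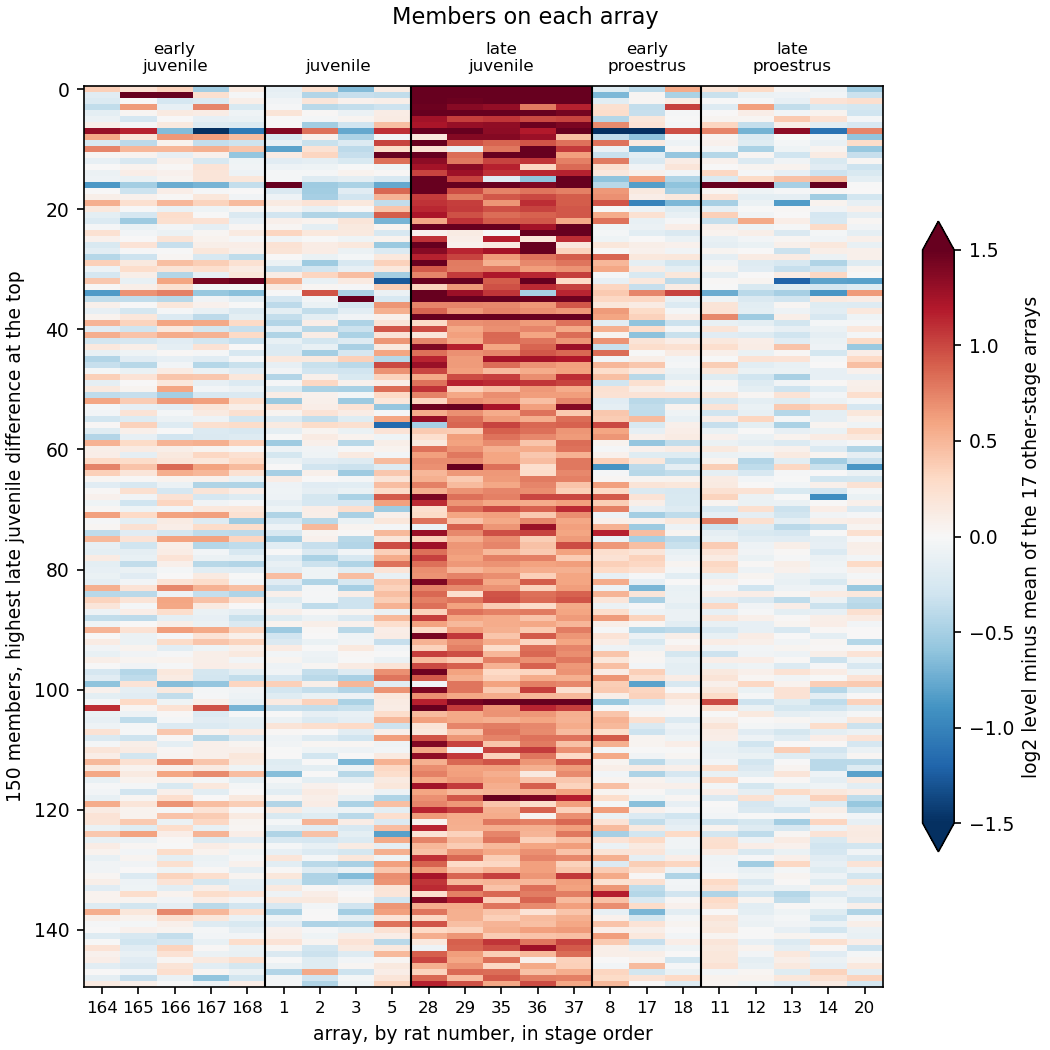
Each row is 1 of the 150 members, ordered by D with the highest at the top, and each column 1 of 22 arrays in stage order. Colour gives the log2 level minus the mean of the 17 arrays of the other stages, with values past 1.5 drawn at the end of the scale. The late juvenile columns are red in nearly every row, juvenile array 5 and early proestrus array 8 are paler red in many rows, and a few rows hold single dark cells elsewhere.

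The member with the highest D was ILMN_1358715. Its level was 8.43, 8.42, 9.74, 9.63 and 9.58 on late juvenile arrays 28, 29, 35, 36 and 37, against 5.01 to 6.22 on the 17 arrays of the other stages. The groups did not overlap, and the late juvenile arrays themselves fell into a pair near 8.4 and 3 arrays above 9.5. Only 9 of the 17 other arrays detected the probe, so the size of its difference rests partly on values near background. Between the other stages its means lay within 5.55 to 5.77.

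The second member, ILMN_1374870, was the steadiest of the named probes within the late juvenile stage, at 10.06, 10.16, 10.23, 10.20 and 10.14. In early juvenile rats it was at 10.09 and 10.24 on arrays 165 and 166, within or just above the late juvenile range, but at 8.39, 8.80 and 8.55 on arrays 164, 167 and 168. The 12 arrays of juvenile and proestrus rats lay between 7.89 and 8.59. The late juvenile level was thus also present in 2 of 5 rats of the youngest stage, and no rat lay between 8.80 and 10.06. Its differences among the other stages did not pass the test described below (juvenile minus early juvenile -0.97, limma adjusted p = 0.0771).

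ILMN_1365908, singled out after its values were seen, was the only member detected on none of the 17 other arrays. It was at 6.92, 6.25, 6.65, 5.98 and 7.34 on the late juvenile arrays. All other arrays lay between 4.58 and 5.01, not well above background. On the neqc scale, late juvenile brightness was at least 1.91-fold that of early juvenile rats and 1.84-fold that of juvenile rats. It was at least 1.90-fold that of early proestrus rats and 1.92-fold that of late proestrus rats. The lowest detected signal of each dim array was taken as its bound. In raw intensity, not corrected for background, the mean was 264.3 in late juvenile rats and 158.7 to 171.3 in the other stages. Of the other members, 142 were detected on all 17 other arrays, 4 on 9 to 16 and 3 on 1 to 8. The 142 were thus detected on every array used and differed in amount. No share was computed over the 9119 probes detected on all 5 late juvenile arrays, from which members came. Nothing particular to the members is read from these counts.

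**Figure D2:**
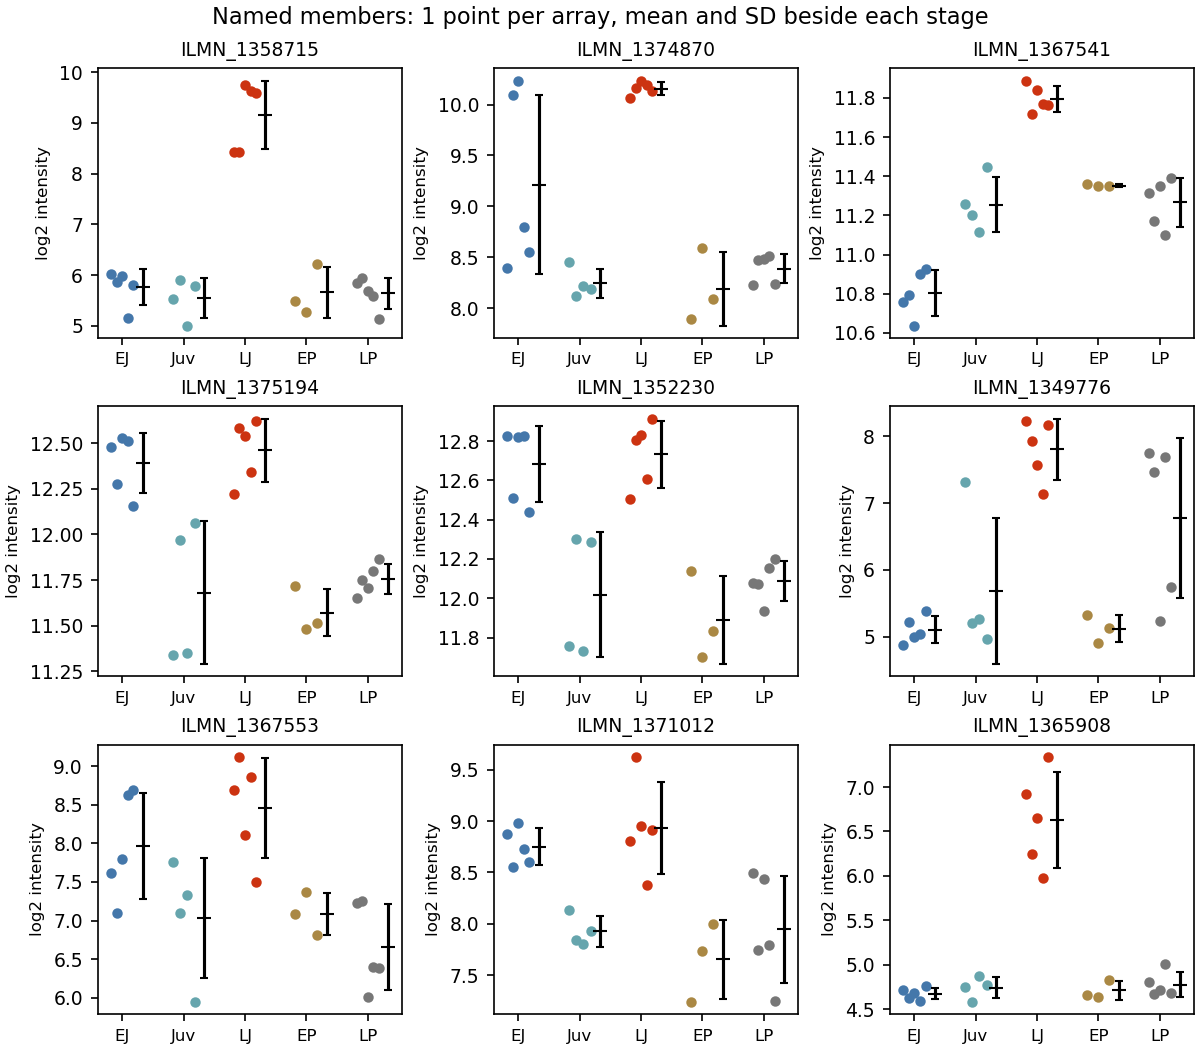
Log2 intensity of the 9 named members, 1 point per array, with the mean and SD at the right of each stage (EJ early juvenile, Juv juvenile, LJ late juvenile, EP early proestrus, LP late proestrus). ILMN_1358715 and ILMN_1365908 are high in late juvenile rats alone, ILMN_1374870 is also high on 2 early juvenile arrays, and ILMN_1349776 also on 1 juvenile and 3 late proestrus arrays.

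For 51 members all 5 late juvenile arrays lay above all 17 others. Over all tested probes this held for 1.2%, and since the rule used this contrast nothing is read from the difference. In 42 members exactly 1 other array reached the late juvenile range, meaning the lowest late juvenile array or above. In 39 members 2 to 5 other arrays did, and in 18 members 6 or more. A member thus need not separate the stage rat by rat. Median scaling in place of quantile normalization left 12 members without overlap. Shares over all tested probes were not computed for these counts of members by number of reaching arrays, nor for overlap under median scaling.

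The arrays that reached the range were unevenly spread. Juvenile array 5 did so for 47 members and early proestrus array 8 for 43, against 20 to 30 on the early juvenile arrays, 12 to 15 on the other juvenile arrays, 10 on each of the other 2 early proestrus arrays and 5 to 13 on the late proestrus arrays. Of the 42 members with a single such array, it was juvenile array 5 in 19 and early proestrus array 8 in 17. Each array was also summarised by the median over members of the level minus the mean of the 17 other-stage arrays. That median was 0.83 on late juvenile array 28 and from 0.68 to 0.73 on arrays 29 to 37 of that stage. It was 0.24 on early proestrus array 8, 0.18 on juvenile array 5, and between -0.14 and 0.07 on the remaining 15.

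**Figure D3:**
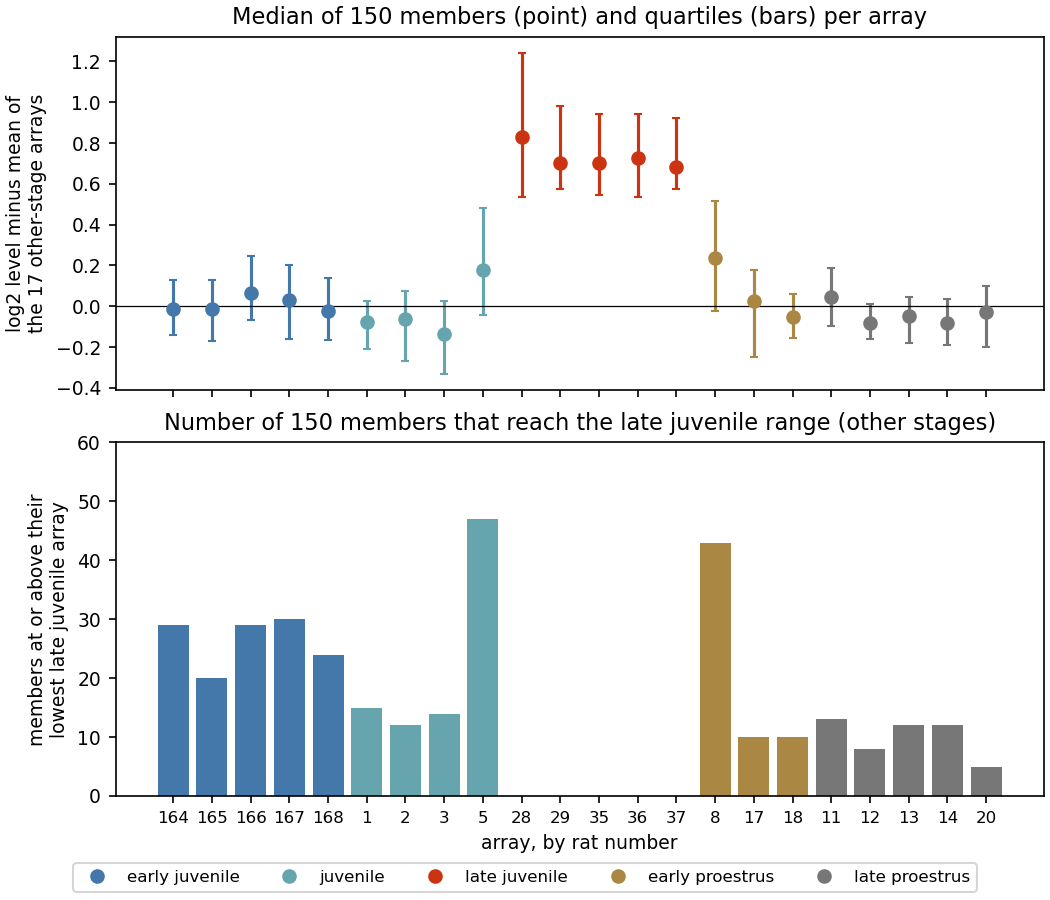
Upper panel: for each array, the median over the 150 members of the log2 level minus the mean of the 17 other-stage arrays, with quartiles as bars. Lower panel: number of members at or above their own lowest late juvenile array. Late juvenile medians lie between 0.68 and 0.83, and juvenile array 5 (47 members) and early proestrus array 8 (43 members) stand above the other arrays of their stages. Over all tested probes 76.3% reached that range on juvenile array 5 and 81.5% on early proestrus array 8.

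Early proestrus array 8 comes from the early proestrus rat labelled 29 days, the age of the late juvenile rats. On it 107 members were higher than on both other early proestrus arrays, those of rats labelled 31 and 32 days (the second above the upper limit in the design text), against 38.8% of all tested probes. The median member difference was 0.30, where the median over tested probes was 0.01. With 1 rat of that age in the stage this has no test, and age and animal cannot be told apart. The count is 65 with median scaling. Juvenile array 5, the dimmest array used, was higher than the 3 other juvenile arrays for 96 members, against 35.8% of all tested probes. Its median member difference was 0.30 as well. With median scaling it was higher for 35 members. The 38.8% and 35.8% are shares under quantile normalization, and none was computed under median scaling. An excess on either array over all tested probes is thus shown under quantile normalization only. In 75 members both arrays stood above the others of their stage, in 32 only early proestrus array 8, in 21 only juvenile array 5 and in 22 neither. The 22 members with neither had a median late juvenile difference of 1.14, against 0.67 in the 75 with both. They were also dimmer, with a median level over the other stages of 8.08, against 9.53. Late juvenile array 28, the dimmest of its stage at a mean raw signal of 582.9, carried the highest late juvenile value for 72 members and the lowest for 37. Without juvenile array 5 and late juvenile array 28, 80 members had no overlap, and without early proestrus array 8 as well, 108. Leaving out arrays tends to raise this count, above all arrays that often reached the range. No share over all tested probes was computed for these settings, so nothing is read from the rise.

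Next to the late juvenile stage, the highest mean was that of early proestrus in 74 members, early juvenile in 50, juvenile in 15 and late proestrus in 11. Over all tested probes early proestrus was highest of the 4 stages for 26.6%, early juvenile for 31.7%, juvenile for 18.6% and late proestrus for 23.1%. The early proestrus mean includes array 8. The median member difference was 0.74 for late juvenile minus early juvenile, 0.76 for late juvenile minus juvenile, 0.67 for late juvenile minus early proestrus and 0.77 for late juvenile minus late proestrus. These differences are those the rule used and are a description. The smallest single difference, 0.04, was from the early juvenile stage.

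Members varied more between arrays than other probes did. Their median SD within the other stages was 0.23 log2, against 0.17 for the 8969 other probes detected on all late juvenile arrays, and in the late juvenile stage itself 0.23, against 0.18. The range over the 17 other arrays also holds differences between stages. It was at least 1 log2 unit in 76 members (50.7%), against 20.5% of those other probes. An SD above 0.5 within the other stages was found in 6 members (4%), against 0.557%. This is a description without a test. A rule that takes the highest D favours variable probes, and the late juvenile SD comes from the arrays that chose the members. The most variable was the member ranked 8 by D, with the 17 other arrays between 5.59 and 8.82 and the late juvenile arrays between 8.65 and 9.88. Members were a little brighter than those other probes, with a median level of 9.26 in the other stages, against 8.70.

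Tests were made on differences among the other 4 stages. Late juvenile means do not enter these differences, but the late juvenile arrays share the normalization, the filter and the estimate of spread, and the rule limits the size of the differences, since the late juvenile deviation had to be the largest. A linear model over all probes and 22 arrays was used (limma, Benjamini-Hochberg adjustment over 12436 probes, threshold 0.05). Any difference among the 4 stages passed for 14 members (9.33%), against 3.95% of all tested probes. The share is of probes chosen for a stage difference and is not a test of the members as a group. A fit of the other 4 stages alone, in which 148 members were tested, passed 13 (506 of 12152 probes in all). In the main fit 491 of all probes passed. The count of members was 6 without early juvenile rat 167 and 8 without rat 164, with 214 and 221 of all probes. It was 29 without juvenile rat 5, and 37 without juvenile rat 5 and late juvenile rat 28, with 760 and 1189 of all probes. With those arrays left out, the count over all probes moved the same way. Without early proestrus rat 18 or rat 8 it did not, with 17 and 15 members and 411 and 458 of all probes. Nothing particular to the members is read from these counts.

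From the early juvenile to the juvenile stage 8 members passed, against 2.17% of all tested probes. Of these members 7 were lower in juvenile rats (1.14% of all) and 1 higher (1.03% of all). As shares of the members these were 4.67% and 0.667%. The rule treats both stages alike, so it does not in itself favour a fall over a rise. The split was not tested, and nothing further is read from it. ILMN_1375194 fell by 0.71 (SE 0.14, limma adjusted p = 0.0123). It was at 11.34, 11.97, 11.35 and 12.06 in juvenile rats 1, 2, 3 and 5, against 12.48, 12.27, 12.53, 12.51 and 12.16 in early juvenile rats. All juvenile arrays lay below all early juvenile ones. Its late juvenile values of 12.22, 12.58, 12.54, 12.34 and 12.62 overlapped the early juvenile range, and its proestrus arrays lay between 11.48 and 11.86. ILMN_1352230 fell by 0.67 (SE 0.13, limma adjusted p = 0.0147), with 12.02 ± 0.32 (SD, n = 4) in juvenile rats and 12.68 ± 0.19 (SD, n = 5) in early juvenile rats. Its late juvenile mean of 12.73 ± 0.17 (SD, n = 5) was again close to the early juvenile one. It lost the call without juvenile rat 1 or rat 3 (adjusted p at most 0.0600).

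The 7 members that fell in this step were bright, with mean levels of 10.99 to 12.65 over the other stages. Their late juvenile means exceeded the early juvenile ones by 0.05 to 0.17 and the juvenile ones by 0.69 to 0.78. Where the early juvenile level is high, the rule required the late juvenile mean to be higher still. At the D of these members that gap is bound to be small, so nothing is read from it. The juvenile and proestrus means of the 7 lay below their early and late juvenile means. Early proestrus rat 8, also labelled 29 days, was low too in ILMN_1375194 (11.72) and in ILMN_1352230 (12.14). The count of 8 changed to 4 without early juvenile rat 167 and 5 without rat 164, where 117 and 93 of all probes passed. It was 2 without juvenile rat 1 or rat 3 (98 and 129 of all probes) and 16 without juvenile rat 5 (298). The main fit passed 270 of all probes. On all 24 arrays, with the 2 of low signal, 0 members and 0 of all probes passed.

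ILMN_1367541 was the member that rose in juvenile rats, with 11.26 ± 0.14 (SD, n = 4), against 10.80 ± 0.12 (SD, n = 5) in early juvenile rats (log2 difference 0.45, SE 0.08, limma adjusted p = 0.00922). The juvenile arrays, at 11.26, 11.20, 11.12 and 11.45, all lay above the early juvenile arrays, at 10.76, 10.79, 10.64, 10.90 and 10.93. In the late juvenile rats it reached 11.72 to 11.89, above every other array. In proestrus it was back near its juvenile level, at 11.35 ± 0.01 (SD, n = 3) in early proestrus and 11.27 ± 0.12 (SD, n = 5) in late proestrus. Median scaling gave a difference of 0.35 that did not pass (adjusted p = 0.280).

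Over the whole span, late proestrus minus early juvenile, 21 members passed, against 6.18% of all tested probes. Of these 17 were lower in late proestrus (2.82% of all) and 4 higher (3.36% of all). As shares of the members these were 11.3% and 2.67%. Here too the rule treats both stages alike and does not in itself favour a fall. The split was not tested, and nothing further is read from it. All 8 members called in the juvenile step were among the 21, and both comparisons share the early juvenile arrays. In 15 of the 17 all late proestrus arrays lay below all early juvenile arrays. The 17 had passed the test of that same difference, so nothing is read from this. The median of the 17 differences was -0.60 and their range -1.31 to -0.52. In 12 of the 17 the late juvenile mean lay within 0.2 log2 above the early juvenile mean, which held for 13 of all 150 members. The rule required the late juvenile mean to exceed a high early juvenile one. At the D of these members only a small gap is left, so nothing is read from this. The count of 21 changed to 11 without early juvenile rat 167 (398 of all probes, against 769 in the main fit). It was 12 without early juvenile rat 164 (433) or late proestrus rat 12 (461) or rat 20 (431). Without late proestrus rat 14 it was 13 (531). Without juvenile rat 5, late juvenile rat 28 and early proestrus rat 8 it was 38 (1686). On all 24 arrays 0 members and 1 of 12513 probes passed.

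**Figure D4:**
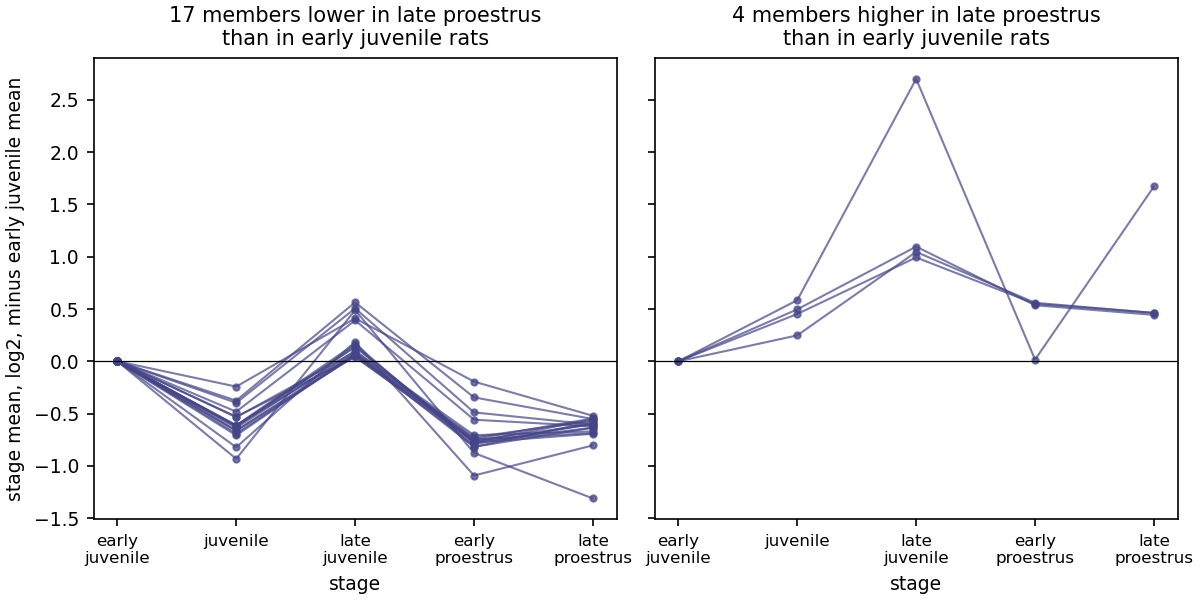
Stage means of the 21 members called in late proestrus minus early juvenile, each drawn as the log2 difference from its own early juvenile mean, with stages in order. In the 17 members at the left the late juvenile means lie 0.04 to 0.56 above the early juvenile ones and the juvenile and proestrus means below them. The 4 members at the right stand 0.44 to 1.67 higher in late proestrus, and 3 of them run close together.

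ILMN_1367553 had the largest fall, to 6.65 ± 0.55 (SD, n = 5) in late proestrus, against 7.97 ± 0.68 (SD, n = 5) in early juvenile rats (log2 difference -1.31, SE 0.36, limma adjusted p = 0.0349). Its late proestrus arrays were at 7.23, 7.25, 6.01, 6.40 and 6.39, and its early juvenile arrays at 7.62, 7.10, 7.80, 8.62 and 8.69, so the groups overlapped at array 165. The late juvenile arrays ran from 7.50 to 9.12. ILMN_1371012 fell by 0.80 (SE 0.22, limma adjusted p = 0.0335), with 8.50, 7.75, 8.44, 7.79 and 7.25 in late proestrus, against 8.88, 8.55, 8.98, 8.73 and 8.61 in early juvenile rats, without overlap. For each of the 2 probes there were 7 arrays whose removal ended the call, the adjusted p then reaching at most 0.0997 for ILMN_1367553 and 0.100 for ILMN_1371012. The call of ILMN_1371012 was also lost with median scaling (adjusted p = 0.0757), and that of ILMN_1367553 with no filter on dim probes (adjusted p = 0.0522). The sizes depend on the background correction. Without it the difference was -0.64 for ILMN_1367553 and -0.51 for ILMN_1371012, and with the authors' processed values -0.61 and -0.49.

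ILMN_1367541 was higher in late proestrus by 0.46 (SE 0.08, limma adjusted p = 0.00133), and kept this call without each array in turn. ILMN_1349776 was at 7.75, 7.47 and 7.69 in late proestrus rats 11, 12 and 14 but at 5.24 and 5.74 in rats 13 and 20, against 4.88 to 5.38 in early juvenile rats, of which 0 of 5 detected it (4 of 5 late proestrus arrays did). On the neqc scale, late proestrus brightness was at least 2.11-fold that of early juvenile rats, a mean carried by 3 of 5 rats. In raw intensity, not corrected for background, the means were 324.9 and 192.9. The fitted log2 difference, without that bound, was 1.67 (limma adjusted p = 0.0302). In the late juvenile rats it was at 8.23, 7.93, 7.57, 7.13 and 8.17, and juvenile rat 1, at 7.32, also lay in that range. Outside the late juvenile stage the probe thus lay either at 5.74 or below or at 7.32 or above, depending on the rat, while all 5 late juvenile rats had the high level. Its log2 difference of 1.67 was 0.61 on the authors' own scale and 0.63 when no background was corrected. For this probe too 7 arrays ended the call when removed singly (adjusted p at most 0.0842).

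The stages on either side of the late juvenile one, early proestrus and juvenile, did not differ detectably in any member. limma called 0 members in early proestrus minus juvenile (0% of all tested probes), with 9 members at an unadjusted p under 0.05, 8 of them higher in early proestrus. Over all tested probes 3.65% had such a p, 1.97% higher and 1.68% lower in early proestrus. The median member difference was 0.08, and the median standard error over members was 0.18. In late proestrus minus early proestrus limma also called 0 members (0.00804% of all tested probes), with 11 at an unadjusted p under 0.05, of which 10 were lower in late proestrus. Over all tested probes 4.13% had such a p, 2.10% higher and 2.03% lower in late proestrus. The median member difference was -0.10 with a median standard error of 0.17. Both comparisons use the 3 early proestrus arrays, of which array 8 stood high in many members. A p above the threshold does not show equal levels.

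Only 6 of the 150 member targets had a further probe on the array, 7 probes in all. Their neqc late juvenile difference had a median of 0.16, and 5 of the 7 were above 0. The 2 that all 5 late juvenile arrays detected stood at 0.46 and 0.53. A further probe detected on 4 of 5 late juvenile arrays stood at 0.52, and 2 detected on 3 of 5 at 0.16 and 0.02. The 2 below 0, at -0.07 and -0.08, were detected on none of the 22 arrays. Such probes lie on the same arrays and are no replicates.

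The choice of members rests on the scale. Applied to neqc values, the rule chose 75 of the 150 again, and applied to median-scaled values 56. With quantile normalization of the raw intensity and no background correction it chose 146. Without 1 array in turn it chose 120 to 148, the lowest without late juvenile array 28. Under median scaling the late juvenile difference of the members, which chose them, was 0.08 to 3.22 with a median of 0.35, where the median over all tested probes moved to -0.22. The member median thus stood 0.57 above that of all tested probes, against 0.71 with quantile normalization.

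**Figure D5:**
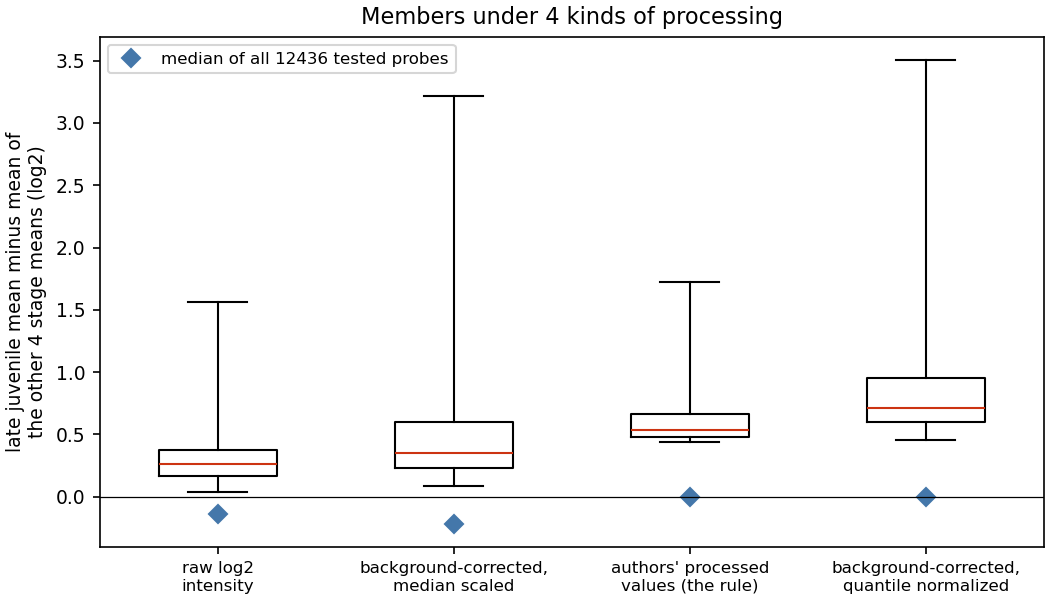
Late juvenile mean minus the mean of the other 4 stage means, in log2, for the 150 members under 4 kinds of processing (the line is the median, the box spans the quartiles and the whiskers reach the lowest and highest member), with the median of all 12436 tested probes as a diamond. The member medians are 0.26, 0.35, 0.54 and 0.71 from left to right. The members were chosen by this difference, so their place above 0 is no finding.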

How the data were processed

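The deposited table of raw intensity holds 22523 probes on 24 arrays and is not normalized, per the file headers. It also holds, per probe and array, the deposited detection p-value, in 825 steps. A further table holds the authors' processed intensity, on a linear scale and not centred. It kept the rank order of the raw values on every array (Spearman correlation 1). Its highest value was 62830, and its array medians lay between 213.7 and 216.5. The authors' tools are not stated in the sources used here. No 2 arrays hold identical values.

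Members and lists were chosen with earlier results of these data known. The gene lists could not be used, since no probe is named here. Raw intensities were background-corrected, quantile normalized and taken to log2 with neqc (limma 3.58.1, R 4.3.3, offset 16, background from the detection p-values). Kept were the 12436 probes that 4 or more of the 22 arrays detected (p-value under 0.05), all 150 members among them. One mean per stage was fitted with lmFit and eBayes, tested on simulated data. Named probes are the 2 members of highest D and, per comparison, up to 2 called members with the largest rise and up to 2 with the largest fall. Precision is limited by the 3 to 5 arrays per stage. No slide or scan date is stated in the sources used here. Alternatives were other background correction, scaling, filters, sets of arrays and array weights.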

Additional observations from a re-analysis of the deposited data

Results flagged for a closer look

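For the median member level and the 9 named probes, the extreme arrays of every stage of 4 or 5 arrays were compared with the rest of that stage, 40 groups of values in all. An array stood far from its stage in 2 of them, where chance gives about 5%. ILMN_1358715 was at 5.15 on early juvenile array 167, against 5.80 to 6.02 on the other 4. ILMN_1349776 was at 7.32 on juvenile array 1, against 4.97 to 5.27 on the other 3.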

How the results depend on the processing

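The settings that left out early proestrus array 8 together with juvenile array 5 and late juvenile array 28, and all settings for named probes, overlap and further probes, were chosen after seeing the data. Each set of 3 counts of members refers to any difference among the 4 other stages, to juvenile minus early juvenile and to late proestrus minus early juvenile (14, 8 and 21). All 24 arrays gave 0, 0 and 0, and array weights 38, 26 and 41. Over all tested probes these were 1, 0 and 1, and 1843, 941 and 2163, against 491, 270 and 769 in the main fit. Without juvenile array 5 and late juvenile array 28 the first 2 were 37 and 18 (1189 and 459 of all probes). Without early proestrus array 8 as well they were 35, 22 and 38 (1300, 536 and 1686 of all probes). No background correction gave 22 for the first (712 of all probes). Detection p under 0.01 on every array, which left 136 members, gave 23 and 13 for the first 2 (648 and 321 of 7507 probes). Leaving out 1 array gave 6 to 29, 2 to 16 and 11 to 24. Over all tested probes that was 214 to 760, 93 to 373 and 398 to 1038. The 2 comparisons with early proestrus gave 0 members in every setting. Median scaling lowered the median late juvenile difference of the members to 0.35 (0.71 reported) and the members without overlap to 12 (51). It lowered those high on early proestrus array 8 to 65 (107) and on juvenile array 5 to 35 (96), and the members chosen again to 56. Shares of all tested probes were not computed for these counts under median scaling. Neqc values in the rule chose 75 again. The members without overlap numbered 80 without juvenile array 5 and late juvenile array 28, and 108 without early proestrus array 8 as well. Leaving out arrays tends to raise this count, and no share over all tested probes was computed for it. Leaving out 1 array gave 51 to 70 members without overlap, a median difference of 0.68 to 0.75, and 120 to 148 members chosen again. Of 222 recomputed differences of named probes 0 changed direction and 33 no longer passed. The cause was not tested. Signal over background limits dim members such as ILMN_1365908. No paired analysis was possible because animal numbers are unique to each rat.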
